A study of Mus musculus with 20 samples.

Results

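Ketone body metabolism and mitochondrial uncoupling were followed through 6 genes, Bdh1, Acat1, Oxct1, Slc16a1, Ucp2 and Ucp3. They were taken by symbol from the 22298 genes listed for each of 20 liver RNA sequencing libraries. The libraries came from male Lepr db/db mice, a strain made obese and diabetic by loss of leptin receptor signalling. Each library held the liver of 1 mouse, with 5 mice in each of 4 groups. All mice were injected through the tail vein at 5 weeks of age with an adeno-associated virus of serotype AAV8, which mainly reaches hepatocytes. The Vec and Vec+BBR groups received a vector with a non-targeting shRNA, and the shRNA and shRNA+BBR groups received a vector with shRNAs against Pparg, the gene of the nuclear receptor PPARγ. The Vec+BBR and shRNA+BBR mice were given benzbromarone (BBR, a uricosuric drug) by gavage at 25 mg/kg for 4 weeks, and the other mice were given vehicle. Livers were taken after a 6 h fast. The groups therefore ask how BBR acts on these genes with and without hepatic PPARγ knockdown. Lean mice and mice without a vector were not analysed here.

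Ketone bodies are made in liver mitochondria from acetyl-CoA when fatty acid oxidation is high. They leave through monocarboxylate transporters and are burned in heart, muscle and brain, while hepatocytes normally make little of the enzyme that would let them use ketone bodies themselves. Uncoupling proteins are inner-membrane carriers of mitochondria that have been linked to proton leak and to the handling of fatty acids and reactive oxygen. Ucp2 is found in many cell types, including macrophages and the hepatocytes of fatty liver, and Ucp3 is best known from skeletal muscle and brown fat. Several genes of these pathways are known targets of PPAR receptors, which bind paired AGGTCA-like hexamers.

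Ucp2 and Ucp3 are neighbours, and their upstream sequences are shown because both genes had higher levels with BBR. In the GENCODE annotation of GRCm38, Ucp3 lies at chr7:100472990-100486432 and Ucp2 at chr7:100493337-100502020, both on the plus strand, with 6904 bases and no other gene between them. The 250 bases before the RefSeq start of each gene follow, on the plus strand of GRCm38.p6, from chr7:100472741-100472990 for Ucp3 and chr7:100493108-100493357 for Ucp2. Capitals mark matches to AGGTCA or to AGGTCANAGGTCA with up to 2 mismatches, searched on both strands.
Ucp3: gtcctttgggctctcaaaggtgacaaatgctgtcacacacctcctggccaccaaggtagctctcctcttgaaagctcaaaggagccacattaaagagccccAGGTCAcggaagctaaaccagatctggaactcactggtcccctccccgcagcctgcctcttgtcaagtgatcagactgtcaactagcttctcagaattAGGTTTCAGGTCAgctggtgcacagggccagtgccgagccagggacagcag
Ucp2: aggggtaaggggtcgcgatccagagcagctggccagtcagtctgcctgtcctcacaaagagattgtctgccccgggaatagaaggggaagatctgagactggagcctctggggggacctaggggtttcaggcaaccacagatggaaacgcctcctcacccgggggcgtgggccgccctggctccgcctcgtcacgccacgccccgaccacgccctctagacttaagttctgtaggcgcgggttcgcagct
The Ucp3 window held AGGTCA at 149 and at 44 bases before the start. The one at 44 bases formed the downstream part of the AGGTTTCAGGTCA match, which began 51 bases before the start and had 2 mismatches. The Ucp2 window held neither motif, and neither did the windows of Slc16a1, Oxct1 and Bdh1. Of 32851 such windows, 14% held AGGTCA and 3.24% held the longer motif. A match of letters describes the window and does not show binding.

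The other genes lie at chr16:31422280-31458901 (Bdh1, plus strand), chr9:53580522-53610382 (Acat1, minus strand), chr15:4026383-4155344 (Oxct1, plus strand) and chr3:104638668-104658462 (Slc16a1, plus strand), and all 6 genes are protein coding. Ucp2 overlaps Dnajb13 on the opposite strand, and whether counting used strand is not given in the sources used here. Dnajb13 had at most 12 counts in any library and 0.378% to 0.725% of the summed Ucp2 counts of a group.

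The libraries held 17432904 to 25024099 counts. Of the 22298 genes, 12342 passed the filter on low counts and were tested, and among them were 5 of the 6 genes of interest. Ucp3 did not pass. The targeted gene was checked before any other. Pparg was 24.8 ± 8.63 CPM in Vec, 31.8 ± 4.57 in Vec+BBR, 5.73 ± 1.53 in shRNA and 13.9 ± 6.22 in shRNA+BBR (counts scaled to library size by TMM, as CPM, mean ± SD, n = 5 each). It was lower in shRNA than in Vec by a log2 fold change of −2.12 ± 0.28 (SE, edgeR adjusted p = 4.47e-05) and lower by −1.20 ± 0.26 when the 2 BBR-treated groups were compared (edgeR adjusted p = 0.00843). In both comparisons the groups did not overlap. Pparg was higher in shRNA+BBR than in shRNA by 1.28 ± 0.28 (edgeR adjusted p = 0.00773), so the knockdown groups differed in the remaining transcript. Hepatocyte markers were present in every library, with a summed level of 91690 to 159600 CPM for 9 of the 10 listed genes.

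The 6 genes spanned a wide range of abundance. On the deposited FPKM scale, which divides by transcript length and so allows genes to be compared, Bdh1 and Acat1 were the most abundant in every group. Bdh1 averaged 129 ± 17.7 FPKM and Acat1 127 ± 15.9 FPKM in Vec (SD, n = 5), and their ranges overlapped in all 4 groups. Ucp2 followed at 18.9 ± 9.58 FPKM in Vec and Slc16a1 at 9.43 ± 2.76 FPKM, and these ranges overlapped in Vec and in shRNA. Their order turned between groups. Ucp2 stood 3.05 times above Slc16a1 in Vec+BBR, without overlap, whereas in shRNA the means were 12.2 FPKM for Ucp2 and 12.6 FPKM for Slc16a1. Oxct1 was scarce, at 0.631 ± 0.193 FPKM in Vec, and did not reach 1 FPKM in any library. Ucp3 was lowest in every group, at 0.0262 ± 0.0365 FPKM in Vec and 0.223 ± 0.046 FPKM in Vec+BBR. Ucp1, the brown fat uncoupling protein, had 0 counts in all 20 libraries, which allows up to 0.12 to 0.172 CPM in a library (3 counts, counting error only).

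**Figure D1:**
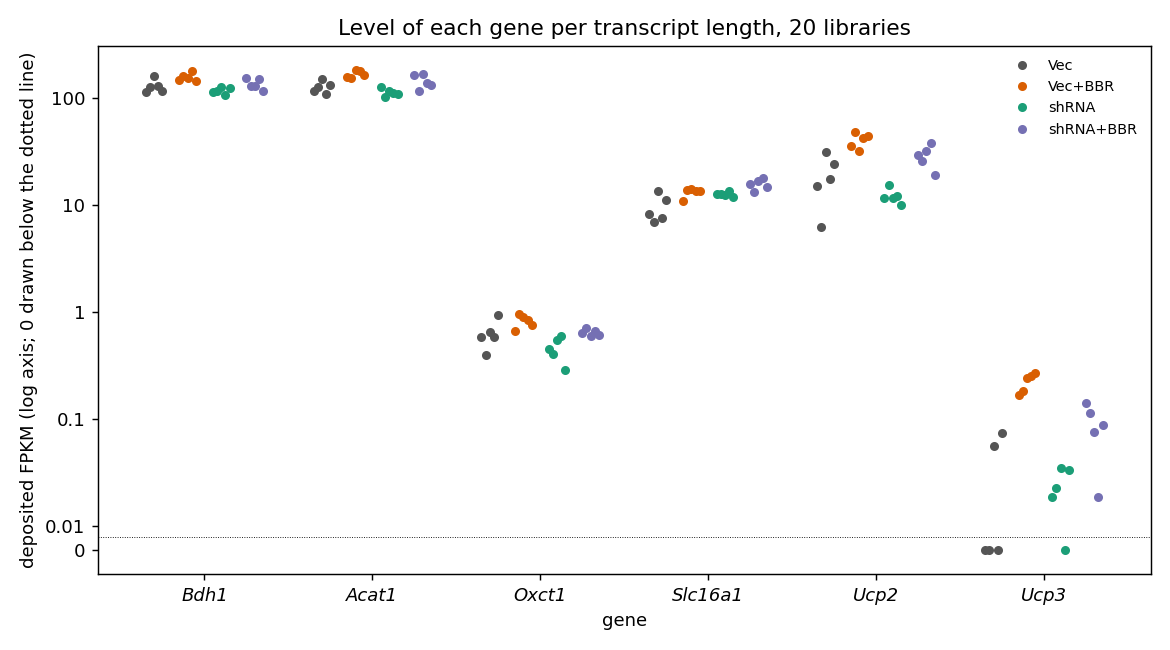
Deposited FPKM of the 6 genes in each of the 20 libraries on a log axis, coloured by group, with values of 0 drawn below the dotted line. Bdh1 and Acat1 lay above 100 FPKM in every library, Oxct1 below 1 FPKM, and Ucp3 was listed at 0 in 3 Vec libraries and 1 shRNA library.

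BBR raised Ucp2 in both vector backgrounds, and this was the largest change among the 5 genes tested. In Vec the level was 37.6, 17.2, 79.7, 34.3 and 51.6 CPM in replicates 1 to 5. In Vec+BBR it was 85.1, 88.1, 68.2, 81.1 and 95.4 CPM. Every Vec+BBR library was above 4 of the 5 Vec libraries, and Vec replicate 3 alone reached into the treated range. The fitted difference was a log2 fold change of 0.92 ± 0.26 (SE, 95% interval 0.38 to 1.46), or 1.89-fold, with an edgeR adjusted p of 0.0212. This call was lost without Vec replicate 1 (0.86, edgeR adjusted p = 0.0611), without Vec replicate 4 (0.84, 0.0508) and when only these 2 groups were fitted (0.91, 0.0695). Without Vec replicate 3 the log2 fold change was 1.24 (edgeR adjusted p = 0.000966).

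In the knockdown background Ucp2 was 23.9, 32.3, 26.6, 26.4 and 20.9 CPM in shRNA replicates 1 to 5. With BBR it was 58.0, 60.8, 74.96, 82.8 and 40.1 CPM. The groups did not overlap. The log2 fold change was 1.29 ± 0.27 (95% interval 0.73 to 1.84), or 2.44-fold, with an edgeR adjusted p of 0.00602, and it was called under all 27 alternative settings. The BBR effect was larger in the knockdown background by 0.36 ± 0.37 (95% interval −0.40 to 1.13), which did not pass the test (edgeR adjusted p = 0.607). Without Vec replicate 3 that difference was 0.05.

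Knockdown left Ucp2 at 0.588 of the Vec mean in vehicle-treated mice, a log2 fold change of −0.77 ± 0.26 that did not pass (edgeR adjusted p = 0.0592). The shRNA libraries were tightly grouped and lay within the Vec range, which was set by Vec replicates 2 and 3. The value passed with DESeq2 (−0.76, DESeq2 adjusted p = 0.0281), without Vec replicate 2 (−0.95, edgeR adjusted p = 0.00693), without Vec replicate 4 (−0.84, 0.0391) and without shRNA+BBR replicate 5 (−0.76, 0.0497). It was −0.44 without Vec replicate 3 (edgeR adjusted p = 0.237). Among BBR-treated mice the knockdown difference was −0.40 ± 0.26 (edgeR adjusted p = 0.358), with overlapping groups.

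**Figure D2:**
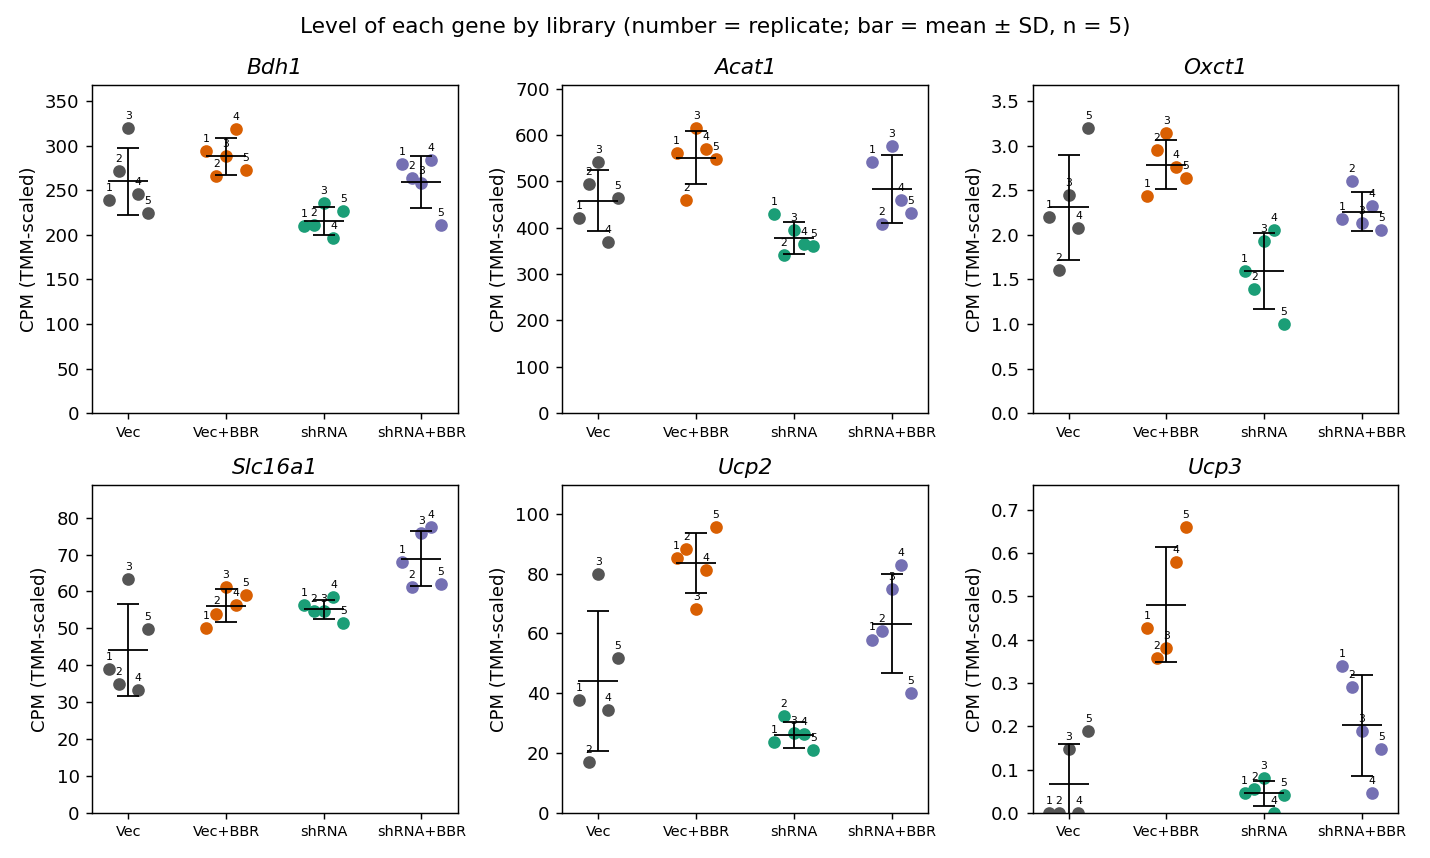
TMM-scaled CPM of each gene in every library, by group, with the replicate number beside each point and bars for the mean ± SD (n = 5). The Vec+BBR libraries were above all shRNA libraries for Ucp2 and Ucp3, and the Vec group was the most spread for Ucp2 and Slc16a1.

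Summed levels of stellate cell and cholangiocyte markers were higher with BBR, as Ucp2 was. Median sums of neutrophil markers (2.71 and 4.66 CPM in Vec and Vec+BBR, 1.46 and 3.93 in shRNA and shRNA+BBR) were also higher with BBR. So were those of erythroid markers (790 and 1143, 562 and 907 CPM), and the ranges of both lists overlapped. Sums of macrophage, hepatocyte, endothelial and lymphocyte markers followed other patterns. The summed level of 8 stellate cell markers was 229 to 402 CPM in Vec and 433 to 462 CPM in Vec+BBR, and the sum of 5 cholangiocyte markers was 24.0 to 45.3 and 50.3 to 96.6 CPM. In the knockdown background the stellate sum was 310 to 359 CPM in shRNA and 373 to 501 CPM in shRNA+BBR, and the cholangiocyte sum was 25.9 to 34.4 and 31.0 to 87.7 CPM. Ranges did not overlap in the first 3 of these 4 contrasts. Among all tested genes, 7.58% passed as higher and 7.88% as lower for Vec+BBR against Vec. These shares were 8.37% and 7.28% for shRNA+BBR against shRNA, and 5.28% and 7.91% for shRNA against Vec. Of the 8 stellate genes, 3 passed as higher with BBR in the Vec background and 4 in the knockdown background. Of the 5 cholangiocyte genes, only Spp1 passed as higher in each background. The sum of 15 macrophage markers overlapped between groups, at 237 to 555 CPM in Vec, 317 to 488 in Vec+BBR, 291 to 393 in shRNA and 380 to 539 in shRNA+BBR. Of these 15 genes, 2 were higher and 2 lower in Vec+BBR than in Vec, and 5 were higher in shRNA+BBR than in shRNA (Spi1, Cd68, C1qa, C1qb and Ccr2). The hepatocyte marker sum was lower in Vec+BBR, at 91690 to 126800 CPM, than in Vec, at 128400 to 159600 CPM, and 5 of its 9 genes passed as lower. The sum of 8 endothelial markers was 101 to 132 CPM in Vec, 135 to 170 in Vec+BBR, 134 to 179 in shRNA and 131 to 176 in shRNA+BBR. Of these 8 genes, 5 passed as higher with BBR in the Vec background and 4 with knockdown in vehicle-treated mice. With BBR in the knockdown background, 1 passed as higher and 2 as lower. Of 6 tested lymphocyte markers, 4 were lower in Vec+BBR than in Vec (median log2 fold change −1.96) and 2 were higher in shRNA+BBR than in shRNA. Across the 20 libraries log2 Ucp2 correlated with the log2 cholangiocyte sum at Pearson r = 0.82 and with the stellate sum at r = 0.80. For the neutrophil, erythroid, macrophage and lymphocyte sums r was 0.69, 0.60, 0.53 and 0.32. For the skeletal muscle, endothelial and hepatocyte sums it was 0.13, 0.04 and −0.57. After removing the group means the values were 0.57, 0.67, 0.55, 0.22, 0.50, 0.71, −0.15, −0.19 and −0.30, in the same order. These libraries share depth and scaling, and the part of other cell types in the Ucp2 result was not tested. In bulk liver, fewer cells of a type and less RNA per cell cannot be told apart.

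Ucp3 rose with BBR in the Vec background from a level near the limit of detection. It had 0, 0, 3, 0 and 4 counts in Vec replicates 1 to 5 and 10, 8, 8, 13 and 14 counts in Vec+BBR. It had 1, 1, 2, 0 and 1 counts in shRNA and 7, 7, 4, 1 and 3 counts in shRNA+BBR. All 5 Vec+BBR libraries held more than 3 counts, against 1 of 5 in Vec, 0 of 5 in shRNA and 3 of 5 in shRNA+BBR.

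Because Ucp3 did not pass the filter, it was tested alone, by a two-sided exact permutation test of mean CPM over libraries that was chosen after its counts were seen. Vec+BBR averaged 0.481 ± 0.132 CPM and Vec 0.0671 ± 0.093 CPM, a difference of 0.414 CPM without overlap (exact p = 0.00794, the smallest that 5 against 5 can give; 0.0159 adjusted over 4 comparisons). Vec+BBR was also above shRNA+BBR, which averaged 0.202 ± 0.117 CPM, again without overlap (a difference of −0.28 CPM from Vec+BBR, exact p = 0.00794, adjusted 0.0159). The shRNA+BBR group exceeded the shRNA group, at 0.0447 ± 0.0292 CPM, by 0.157 CPM with overlapping libraries (exact p = 0.0317, adjusted 0.0423). This last result did not pass without shRNA+BBR replicate 1, 2, 3 or 5 or without shRNA replicate 4 or 5 (0.123 to 0.171 CPM, exact p = 0.0635 in each). Between shRNA and Vec the difference was −0.022 CPM (exact p = 0.556). With no filter on low counts, edgeR gave a log2 fold change of 2.67 ± 0.65 for Vec+BBR against Vec (adjusted p = 0.0102) and 2.04 ± 0.73 for shRNA+BBR against shRNA (adjusted p = 0.0794). For shRNA+BBR against Vec+BBR it gave −1.23 ± 0.55 (adjusted p = 0.216), so that difference was called by the permutation test and not by the count model.

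Ucp3 remained a small fraction of Ucp2 throughout. Summed over the 5 libraries, its counts were 0.159% of the Ucp2 counts in Vec, 0.574% in Vec+BBR, 0.174% in shRNA and 0.32% in shRNA+BBR. Skeletal muscle markers were checked because muscle is a known source of Ucp3 transcript. The summed level of 8 such genes was at most 0.821 CPM in 19 libraries and 15.5 CPM in Vec+BBR replicate 3. That library had 8 Ucp3 counts, or 0.381 CPM and 0.241 FPKM, within the range of its group on each scale. Without it the Ucp3 difference between Vec+BBR and Vec was 0.439 CPM (exact permutation p = 0.0159). The part of muscle RNA in the Ucp3 level was not tested. In Vec, Ckm, Myh4, Tnnt3 and Mb had 0 counts in every library. So did Ckm, Atp2a1 and Mb in shRNA and Ckm, Myh4 and Tnnt3 in shRNA+BBR. None of the 8 was at 0 throughout Vec+BBR, the group of the library at 15.5 CPM. The other Vec+BBR libraries had sums of 0.134 to 0.513 CPM, against 0.25 to 0.518 CPM in Vec. Log2 Ucp3 correlated with the muscle sum at r = 0.20 over 20 libraries and −0.06 within groups. For the stellate, cholangiocyte, erythroid, neutrophil, endothelial, macrophage, lymphocyte and hepatocyte sums r was 0.71, 0.64, 0.53, 0.35, 0.28, 0.22, −0.19 and −0.68. Within groups these lay between −0.31 (hepatocyte) and 0.29 (stellate). The part of other cell types in the Ucp3 level was not tested either.

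**Figure D3:**
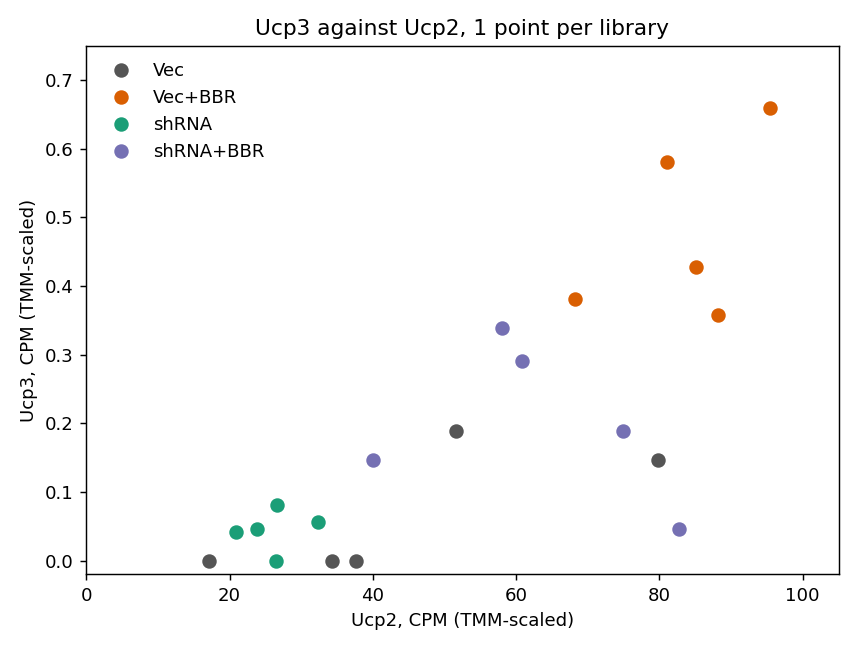
Ucp3 against Ucp2, both in TMM-scaled CPM, with 1 point per library and colours for the groups. The Vec+BBR libraries lay at the upper right, above 0.35 CPM for Ucp3 and 68 CPM for Ucp2, and the shRNA libraries lay at the lower left.

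Acat1, the mitochondrial thiolase that joins acetyl-CoA units in ketone body synthesis and splits acetoacetyl-CoA in ketone use, was higher with BBR in the knockdown background. It was 429, 340, 395, 364 and 361 CPM in shRNA replicates 1 to 5 and 541, 407, 577, 458 and 431 CPM in shRNA+BBR. The groups overlapped only through shRNA replicate 1, which lay above shRNA+BBR replicate 2. The log2 fold change was 0.36 ± 0.11 (95% interval 0.12 to 0.59), or 1.28-fold (edgeR adjusted p = 0.0404). The call did not survive the loss of shRNA replicate 2, 3, 4 or 5, of shRNA+BBR replicate 1, 3 or 4, or of Vec+BBR replicate 5, with log2 fold changes of 0.29 to 0.37 and edgeR adjusted p of 0.0501 to 0.125 among these. It was also lost with no filter on low counts (0.35, edgeR adjusted p = 0.056). In the Vec background Acat1 was 421, 493, 541, 370 and 464 CPM without BBR and 561, 460, 615, 570 and 549 CPM with it. The log2 fold change of 0.27 ± 0.11 did not pass (edgeR adjusted p = 0.115), and 4 of the 5 treated libraries were above every Vec library. The difference of the BBR effects was 0.09 ± 0.16 (edgeR adjusted p = 0.798).

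Bdh1, the mitochondrial dehydrogenase that interconverts acetoacetate and β-hydroxybutyrate, lay between 196 and 320 CPM over the 20 libraries. It was 260 ± 37.6 CPM in Vec, 288 ± 20.7 in Vec+BBR, 216 ± 15.7 in shRNA and 259 ± 29.3 in shRNA+BBR (SD, n = 5). No comparison passed. The log2 fold change with BBR was 0.15 ± 0.10 in the Vec background (edgeR adjusted p = 0.341) and 0.26 ± 0.10 in the knockdown background (0.0701), and that of knockdown was −0.27 ± 0.10 in vehicle-treated mice (0.0734). DESeq2 called the last 2 (DESeq2 adjusted p = 0.0463 and 0.0487). The BBR value in the knockdown background also passed without Vec replicate 3 (0.27, edgeR adjusted p = 0.0372) and without shRNA+BBR replicate 5 (0.33, 0.0228), and the knockdown value passed without Vec replicate 5 (−0.32, 0.0438).

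Oxct1, the transferase that activates acetoacetate for oxidation and that hepatocytes are known to make in small amounts, had 24 to 68 counts per library. In Vec it was 2.20, 1.61, 2.45, 2.08 and 3.20 CPM, and in Vec+BBR 2.44, 2.96, 3.14, 2.77 and 2.64 CPM. In shRNA it was 1.60, 1.40, 1.93, 2.06 and 1.00 CPM, and in shRNA+BBR 2.18, 2.61, 2.13, 2.33 and 2.05 CPM. The shRNA group was lowest, and shRNA replicate 4 reached just above the lowest shRNA+BBR library. The log2 fold change was −0.54 ± 0.19 for knockdown in vehicle-treated mice (edgeR adjusted p = 0.0655) and 0.50 ± 0.19 for BBR in the knockdown background (0.0733). Neither passed, and the knockdown value passed without Vec replicate 2 (−0.62, edgeR adjusted p = 0.0377). The BBR value in the Vec background was 0.26 ± 0.18 (0.358). Over 20 libraries log2 Oxct1 correlated with the erythroid, stellate, cholangiocyte and macrophage marker sums at r = 0.74, 0.61, 0.57 and 0.57. Within groups these values were 0.48, 0.53, 0.25 and 0.47. For the neutrophil, lymphocyte, skeletal muscle, endothelial and hepatocyte sums r was 0.46, 0.33, 0.25, −0.11 and −0.31. Within groups the latter values were 0.16, 0.56, 0.14, 0.008 and −0.13. The part of other cell types in the Oxct1 level was not tested.

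Slc16a1, the proton-coupled transporter of lactate, pyruvate and ketone bodies, was the 1 tested gene of the 5 with positive values for knockdown, although none of its comparisons passed. It was 39.1, 34.8, 63.4, 33.4 and 49.9 CPM in Vec and 56.2, 54.7, 54.6, 58.5 and 51.5 CPM in shRNA. All shRNA libraries were above 4 of the 5 Vec libraries and below Vec replicate 3. It was 49.98, 54.0, 61.3, 56.4 and 59.1 CPM in Vec+BBR and 67.9, 61.3, 75.8, 77.3 and 62.1 CPM in shRNA+BBR. The shRNA+BBR libraries did not overlap with those of shRNA, and they met the Vec+BBR group only at 61.3 CPM.

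The log2 fold change of Slc16a1 was 0.32 ± 0.13 for knockdown in vehicle-treated mice (edgeR adjusted p = 0.115) and 0.29 ± 0.13 in BBR-treated mice (0.173). For BBR it was 0.35 ± 0.13 in the Vec background (0.0795) and 0.32 ± 0.13 in the knockdown background (0.0951). None passed, and the difference of the BBR effects was −0.03 ± 0.19 (95% interval −0.41 to 0.36). Without Vec replicate 3 the BBR value in the Vec background was 0.50 (edgeR adjusted p = 0.00233), the knockdown value was 0.49 (0.0053) and the BBR value in the knockdown background was 0.33 (0.0288). With only the 2 groups fitted, the value passed for shRNA+BBR against shRNA (0.33, 0.0194) and against Vec+BBR (0.31, 0.0475). Slc16a1 tracked the stellate marker sum at r = 0.76 over 20 libraries and 0.83 within groups, and the part of stellate cells in its level was not tested.

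**Figure D4:**
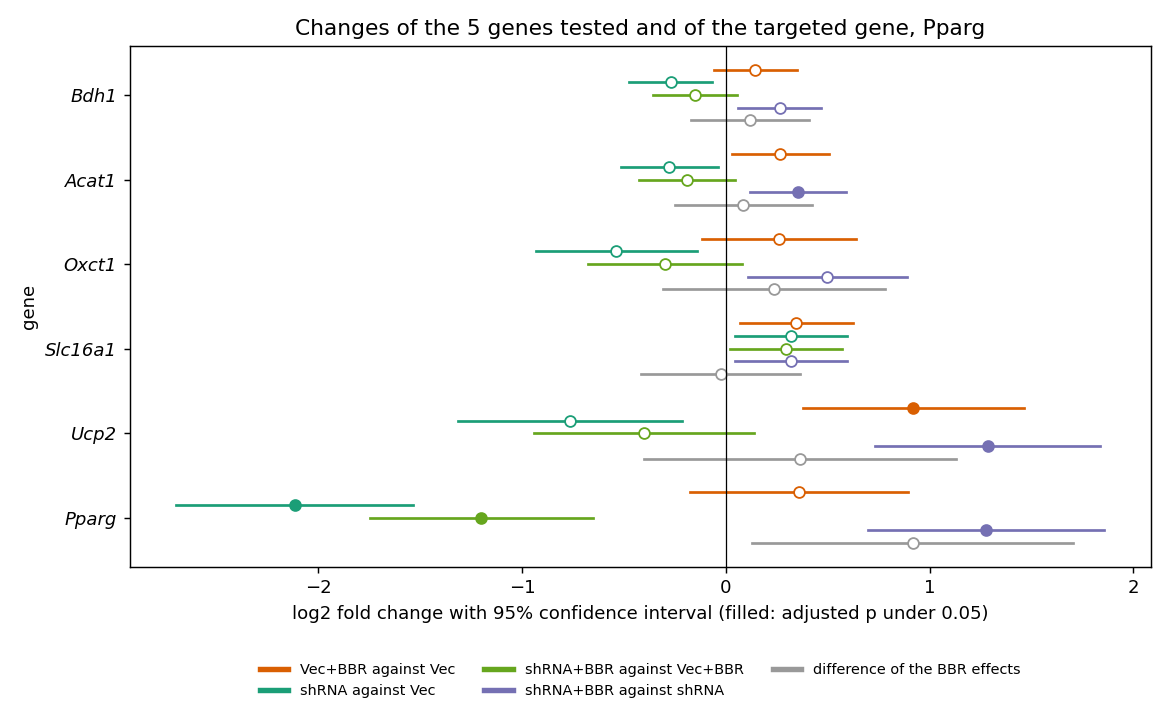
Log2 fold change with its 95% confidence interval for the 5 tested genes and Pparg in 4 comparisons and for the difference of the BBR effects, with filled points where the edgeR adjusted p was under 0.05. Ucp2 and Acat1 have filled points for BBR only, and the Slc16a1 points for knockdown lie to the right of 0 where those of the other genes lie to the left.

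Counted by comparison, few of the 5 tested genes passed. For Vec+BBR against Vec, 1 did (Ucp2, higher), where 15.5% of all tested genes passed in either direction, and 0 of 5 had groups without overlap, where 8.94% of all genes did. Their median log2 fold change was 0.27, against −0.005 for all tested genes, and all 5 values were above 0. For shRNA against Vec, edgeR called 0 of 5 against a background of 13.2%, with all 5 under an unadjusted p of 0.05, 2 called by DESeq2 and 0 by limma-voom. None had groups without overlap (8.96% of all genes), and 4 values were below 0. For shRNA+BBR against Vec+BBR, edgeR called 0 of 5 against 8.13%, with 1 under an unadjusted p of 0.05 and 0 by DESeq2 or limma-voom, and 0 had groups without overlap against 8.48%. For shRNA+BBR against shRNA, 2 of 5 passed (Acat1 and Ucp2, both higher) against 15.7%, and 2 had groups without overlap (Slc16a1 and Ucp2) against 11.4%. The median there was 0.36, against 0.008 for all tested genes, and all 5 had an unadjusted p under 0.05. For the difference of the BBR effects, edgeR called 0 of 5 against 0.146%, with 0 under an unadjusted p of 0.05 and 0 by DESeq2 or limma-voom. The comparisons share control groups, so their counts are not independent.

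Of 8 other enzymes of ketone body and acetoacetyl-CoA metabolism, 5 were tested. Hmgcs1, the cytosolic synthase of the cholesterol pathway, was higher with BBR in the Vec background, with a log2 difference of 1.52 ± 0.34 (edgeR adjusted p = 0.00489). Its BBR value in the knockdown background was 0.81 ± 0.33 and did not pass (0.0964). The difference of its BBR effects did not pass either (−0.71 ± 0.47, 0.413). Acat2, Acat3, Bdh2 and Aacs passed in no comparison. Acat2, the cytosolic thiolase, had values of 0.47 ± 0.18 and 0.53 ± 0.18 with BBR in the Vec and knockdown backgrounds (edgeR adjusted p = 0.0857 and 0.055), beside the 0.27 and 0.36 of Acat1. Acat2 and Acat3 are close paralogs whose reads the counting could split. The median log2 fold change of the 5 was 0.47 and 0.53 with BBR in the Vec and knockdown backgrounds and −0.32 and −0.27 with knockdown in vehicle-treated and BBR-treated mice, where the medians of all tested genes lay between −0.009 and 0.008.

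**Figure D5:**
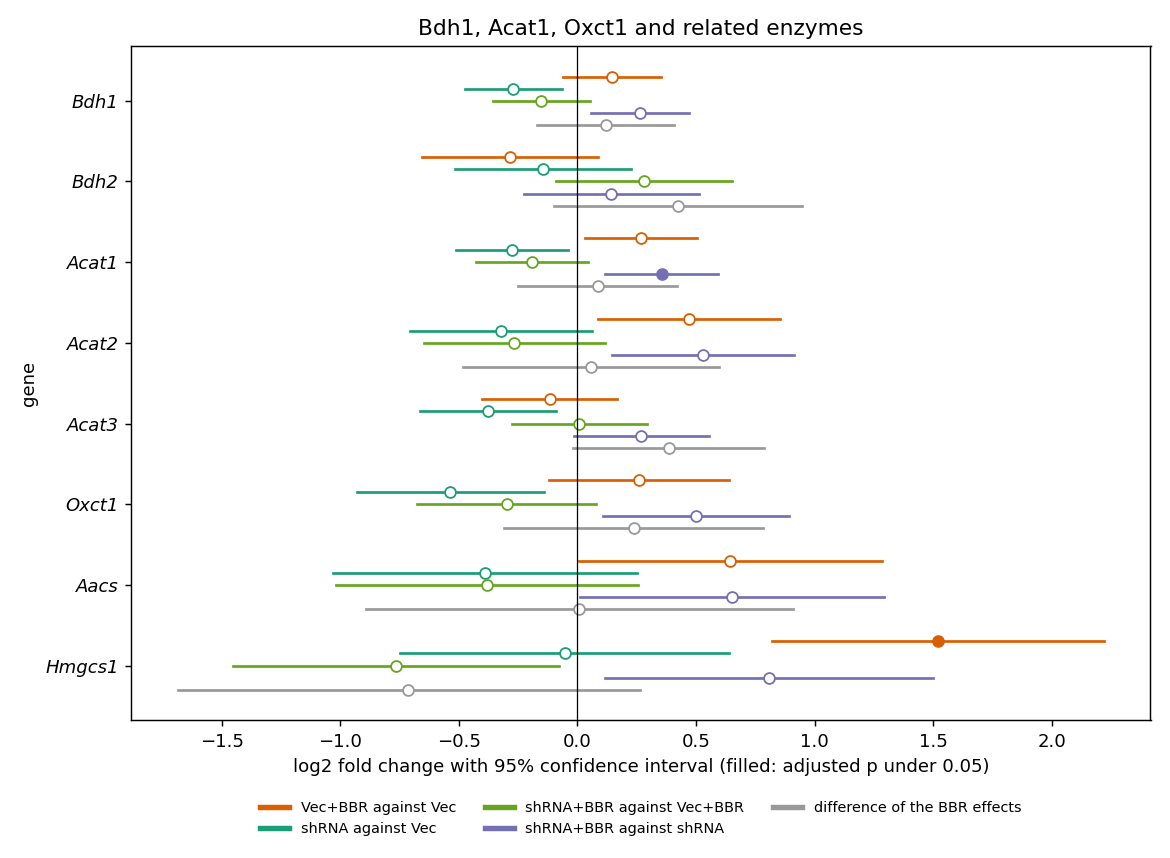
Log2 fold change with its 95% confidence interval for Bdh1, Acat1, Oxct1 and 5 other enzymes in 4 comparisons and for the difference of the BBR effects, with filled points where the edgeR adjusted p was under 0.05. Acat1 and Hmgcs1 have 1 filled point each, and the other 6 enzymes have none.

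Of 15 other monocarboxylate transporter genes and their chaperones, 12 were tested. Slc16a6, which has been described as a carrier of β-hydroxybutyrate out of hepatocytes, was higher with BBR in the Vec background by 0.82 ± 0.26 (edgeR adjusted p = 0.0344) and higher with knockdown in vehicle-treated mice by 0.84 ± 0.25 (0.0335). Slc16a1 had positive values in the same 2 comparisons. Slc16a10, a carrier of aromatic amino acids, was lower with BBR in the Vec background by −1.08 ± 0.22 (0.00292). Slc16a5 was higher with knockdown in vehicle-treated mice by 0.42 ± 0.13 (0.0344) and lower with BBR in the knockdown background by −0.42 ± 0.13 (0.0335). Its knockdown value in BBR-treated mice was −0.003 ± 0.13 (edgeR adjusted p = 0.991). Slc16a13 was higher with BBR in the knockdown background by 1.28 ± 0.37 (0.026). Its BBR value in the Vec background was 0.86 ± 0.36 and did not pass (0.112). Bsg, the chaperone that carries the Slc16a1 protein to the cell surface, passed in no comparison, with log2 fold changes of −0.19 to 0.20. The medians of the 12 were 0.19 and 0.15 with BBR and −0.13 and −0.01 with knockdown, in the same order.

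Of 16 other mitochondrial carriers, 13 were tested. Slc25a10, the dicarboxylate carrier, was higher with BBR in both backgrounds (0.45 ± 0.15 and 0.49 ± 0.15, edgeR adjusted p = 0.0408 and 0.0305). It was lower with knockdown in vehicle-treated mice (−0.50 ± 0.15, 0.0283). Its knockdown value in BBR-treated mice was −0.46 ± 0.15 and did not pass (0.055). The groups there did not overlap, as for 8.48% of all tested genes. Slc25a4, the ADP/ATP carrier, was higher with BBR in the Vec background (0.71 ± 0.19, 0.0169), and Slc25a20, the acylcarnitine carrier, in the knockdown background (0.36 ± 0.10, 0.0194). The aspartate/glutamate carriers Slc25a12 and Slc25a13 were lower with BBR in the knockdown background (−0.85 ± 0.22, 0.0158, and −0.39 ± 0.13, 0.0463). Slc25a12 was higher with knockdown in vehicle-treated mice (0.76 ± 0.22, 0.0243). Slc25a42, the coenzyme A carrier, was lower with BBR in the Vec background (−0.36 ± 0.09, 0.0108) and with knockdown in vehicle-treated mice (−0.56 ± 0.09, 0.00029). Neither its BBR value in the knockdown background (0.09 ± 0.09, edgeR adjusted p = 0.52) nor its knockdown value in BBR-treated mice (−0.12 ± 0.09, 0.43) passed. Slc25a3, the phosphate carrier, was higher with knockdown in vehicle-treated mice (0.22 ± 0.07, 0.0397). The medians of the 13 were 0.009 and 0.087 with BBR and 0.036 and −0.016 with knockdown.

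The 14 regulators of ketogenesis were all tested. For Vec+BBR against Vec 1 passed, for shRNA against Vec 2, for shRNA+BBR against Vec+BBR 0 and for shRNA+BBR against shRNA 1. Hcar2, a receptor for β-hydroxybutyrate, had 1 to 27 counts per library. It was lower with knockdown in vehicle-treated mice (−1.34 ± 0.41, edgeR adjusted p = 0.0336) and higher with BBR in the knockdown background (1.997 ± 0.382, 0.00448). Its BBR value in the Vec background was 0.68 ± 0.34 and did not pass (edgeR adjusted p = 0.179). The groups there did not overlap, as for 8.94% of all tested genes. The difference of its BBR effects was 1.31 ± 0.52 and did not pass (0.191). Its knockdown value in BBR-treated mice was −0.03 ± 0.32 (0.968). Sirt3, a mitochondrial deacetylase, was lower with BBR in the Vec background (−0.48 ± 0.12, 0.00848). Mlycd, which removes malonyl-CoA, was lower with knockdown in vehicle-treated mice (−0.29 ± 0.09, 0.0456). Ppara, Fgf21 and Cpt1a passed in no comparison. Cpt1a, the entry step of fatty acid oxidation, ranged from −0.21 to 0.06. The medians of the 14 were −0.014 and −0.067 with BBR and −0.075 and −0.018 with knockdown. Over these 4 lists, 44 of 53 genes were tested. Of these, 4 were higher and 3 lower for Vec+BBR against Vec, 4 and 4 for shRNA against Vec, and 4 and 3 for shRNA+BBR against shRNA. In these comparisons 15.5%, 13.2% and 15.7% of all tested genes passed in either direction. EdgeR called 0 of the 44 for shRNA+BBR against Vec+BBR, where 8.13% of all tested genes passed. Of the 44, 4 were under an unadjusted p of 0.05 there, and DESeq2 and limma-voom called 1 each. For the difference of the BBR effects edgeR called 0 of the 44 against 0.146%, with 5 under an unadjusted p of 0.05 and 1 by DESeq2.

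Among themselves the 6 genes varied together to different degrees. Over 20 libraries the highest correlations of log2 CPM were Ucp2 with Ucp3 (r = 0.79), Bdh1 with Acat1 (0.77) and Oxct1 with Ucp2 (0.76), and after the group means were removed these were 0.42, 0.48 and 0.50. Slc16a1 correlated with Ucp2 at 0.52 overall and 0.77 within groups, the highest within-group value of any pair among the 6. Its correlation with Pparg was −0.065 overall and 0.59 within groups, and that of Ucp2 with Pparg was 0.71 and 0.62. For Bdh1, Acat1, Oxct1 and Ucp3 the correlations with Pparg were 0.76, 0.75, 0.66 and 0.55. Within groups those were 0.44, 0.50, 0.036 and 0.34. The 20 libraries share scaling and group differences, so these values are descriptions.

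The genes whose profile was most like that of each member were found among 9794 tested genes with a mean of at least 50 counts (9795 for Oxct1 and Ucp3), by Pearson r of log2 CPM over the 20 libraries. For Ucp2 they were Uap1l1 (r = 0.96), Pltp (0.95) and Tgm2 (0.95). For Slc16a1 they were Cd63 (0.93), Ccdc120 (0.91) and Nabp1 (0.90), and for Acat1 they were Rer1 (0.92), Suclg2 (0.90) and Eif4a2 (0.90). For Bdh1 they were Spg21 (0.91), Galk1 (0.87) and Rras (0.87). Those of Oxct1 were Msn (0.85), Ppp1r18 (0.84) and Serpinh1 (0.84), and those of Ucp3 were Pyroxd2 (0.89), Phldb1 (0.88) and Fam171a1 (0.88). For the first gene named in each case, the value within groups was lowest for Ucp3, at 0.63 with Pyroxd2, and highest for Slc16a1, at 0.91 with Cd63.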

How the data were processed

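Liver mRNA of 20 mice, 5 per group, was sequenced. The authors deposited for each library an estimated count and an FPKM value per gene. Per the labels the build was mm10. The aligner and counter are not given in the sources used here. Of the deposited counts, 91.9% to 93.3% were whole numbers, and they were rounded before testing. FPKM was used only to compare genes with one another.

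Counts were filtered (filterByExpr, edgeR 4.0.16, R 4.3.3), TMM-scaled and tested by edgeR's quasi-likelihood test over all 4 groups, with Benjamini-Hochberg adjustment over 12342 genes and a threshold of 0.05. The biological coefficient of variation was 0.177. The test was checked on simulated data. Alternatives were DESeq2 1.42.0, limma-voom (limma 3.58.1), DESeq2 size factors, 2 other filters, fits of 2 groups, a replicate block and each library left out. Ucp3 was also tested by exact permutation. Marker sums and correlations used CPM, the latter as log2(CPM + 0.1).

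All 6 genes are named, with listed pathway genes past the threshold and fixed ones, and the 3 genes most like each. The genes and lists were chosen with earlier results of these data known. Some listed genes are not reported here. Each p measures spread between mice. No library duplicated another of its own group, which were the pairs checked, and replicate numbers were not taken as pairs. Annotation came from GENCODE and promoters from RefSeq, which matched 5 of the 6 genes.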

Additional observations from a re-analysis of the deposited data

How the results depend on the processing

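The direction of every Bdh1, Acat1, Oxct1 and Ucp2 value, and of every Slc16a1 value for BBR or knockdown, was kept under all alternatives. The difference of the BBR effects on Slc16a1 changed sign, from −0.18 to 0.059 as libraries were left out, as did the Ucp3 difference between shRNA and Vec, from −0.039 to 0.00796 CPM. The number of the 6 genes passing for Vec+BBR against Vec was 2 with no filter (Ucp3 was then tested) and 0 with only the 2 groups fitted, and 0 to 2 with 1 library left out. For shRNA against Vec it was 2 with DESeq2 and 0 to 2 with 1 library left out. For shRNA+BBR against Vec+BBR it was 1 with only the 2 groups, and for shRNA+BBR against shRNA it was 1 with no filter (Acat1 did not pass) and 1 to 4 with 1 library left out, the 4 without Vec replicate 3.

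Of the 53 listed pathway genes, 11 passed for Vec+BBR against Vec with limma-voom and 5 to 12 with 1 library left out (12 without Vec replicate 3). For shRNA against Vec it was 2 with only the 2 groups and 2 to 8 with 1 left out (2 without shRNA replicate 4). For shRNA+BBR against Vec+BBR it was 1 with DESeq2, limma-voom or only the 2 groups and 0 to 1 with 1 left out. For shRNA+BBR against shRNA it was 11 with DESeq2, 12 with only the 2 groups and 1 to 12 with 1 left out (1 without shRNA+BBR replicate 3). For the difference of the BBR effects it was 1 with DESeq2. Beyond the smaller number of samples or genes in a fit, the cause was not tested.

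Replicate numbers were not taken to pair the samples, since no comparison had all 5 same-numbered pairs correlated above 0.1. The number that did was 1 for Vec+BBR against Vec (highest r = 0.44) and 0 for shRNA against Vec (0.016). It was 1 for shRNA+BBR against Vec+BBR (0.11) and 3 for shRNA+BBR against shRNA (0.32). With a replicate block the 6 genes gave 1, 0, 0 and 2 calls, and the Ucp2 values with BBR were 0.99 and 1.27. Over all genes the calls ranged from 1178 to 2395 for Vec+BBR against Vec (main value 1908), 1015 to 2284 for shRNA against Vec (1628), 538 to 1418 for shRNA+BBR against Vec+BBR (1004), 661 to 2527 for shRNA+BBR against shRNA (1932) and 5 to 330 for the difference of the BBR effects (18, 330 with DESeq2). At 0 to 14 counts per library, depth limits Ucp3, and differences of a few counts were not resolved.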
